A study of Mus musculus with 10 samples.

Results

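The 5 libraries labelled WT, of the 10 in the series, describe the normal mouse cortex at embryonic stage E12.5. They are the controls of a study of Emx2, a homeobox gene of the developing cortex; the other 5 libraries, from Emx2 knockout tissue, were not used here. All 5 come from wild-type tissue labelled cortex, which the series' design text calls dorsal telencephalon, and no treatment is named. The labels give neither strain, sex nor litter, and do not say whether a library holds 1 embryo or several. The libraries are numbered 1 to 5 in the order of deposition. A code ends each title: 241022 for libraries 1 and 2, 14922 for libraries 3 and 4, and 31022 for library 5. The labels do not say what it stands for. The titles of libraries 3 and 5 both begin with WT6, and the labels do not say whether these share an animal.

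RNA was sequenced from whole tissue, and the values are read counts per gene. Depth differed: libraries 3 and 4 held 35674113 and 33236998 counts, and libraries 1, 2 and 5 held 11755375, 13565559 and 9720840. Levels are CPM, counts relative to the library's total, which was scaled by TMM, a method that corrects for differences in composition; the scaling factors lay between 0.997 and 1.003. To compare genes with each other, CPM was divided by the length of a gene's exons in kilobases (CPM per kb). No pair of libraries was alike within counting error: chi-square per gene ran from 9.25 to 20.9. The lowest value was that of libraries 3 and 5, whose titles share WT6 and which alone expressed Y-linked genes. Libraries 1 and 5 followed at 9.35. The chi-square rises with depth and includes sex-linked genes, so its order does not measure how alike libraries are. Each library was used as 1 sample, although libraries of the same animal cannot be told from these values. Where nothing shows that libraries come from separate embryos, the spread between them may be partly technical. In whole tissue, fewer cells of a type and less RNA per cell cannot be told apart.

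At this stage the cortical wall consists mostly of radial glia, the dividing stem cells that line the ventricle. They give rise, directly or through intermediate progenitors, to neurons that settle in a thin layer near the surface. The cortex borders other tissues that can enter a dissection: the cortical hem, a signalling centre at the medial edge; the choroid plexus; the ventral forebrain (subpallium), which makes inhibitory neurons; and the diencephalon behind it. Vessels, meninges and blood lie on or in it.

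The transcriptome was broad and had no dominant nuclear gene. In all 5 libraries, 14920 genes reached 1 CPM, 12871 of them protein-coding; 9932 reached 10 CPM, 2312 reached 100 CPM and 45 reached 1000 CPM. The 100 most abundant genes of a library held 15.3% to 16.1% of its counts, and between 1291 and 1329 genes held 50%. Protein-coding genes of the nucleus took 93.3% ± 0.476 of counts (SD, n = 5), and the mitochondrial chromosome took 2.52% ± 0.0926. Identifiers without a match in the annotation took from 0.627% (library 2) to 1.62% (library 1). Most of the latter was a single identifier, ENSMUSG00000119584, which the name table does not pair with a symbol. It held 1.40%, 0.399%, 0.955%, 0.609% and 0.799% of the counts of libraries 1 to 5, the highest mean of any gene. Lars2, which encodes the mitochondrial leucyl-tRNA synthetase, followed the same order, at 1296, 331, 1010, 740 and 765 CPM.

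Per kilobase, the most abundant nuclear protein-coding gene was not neural. Hbb-y, an embryonic beta-type globin of red blood cells, stood at 4062 ± 1369 CPM per kb (SD, n = 5). Next came Eef1a1, a translation elongation factor, at 2929 ± 305 CPM per kb, and Tubb5, a beta-tubulin, at 1102 ± 49.97. The leading genes that followed were Hsp90ab1 (a chaperone; 1060 CPM per kb), Actb (beta-actin; 980), Rplp1 (a ribosomal protein; 965), Tuba1a (an alpha-tubulin of newborn neurons; 944), Eef2 (elongation; 888), Nnat (839) and Marcksl1 (732). Hbb-y spread far more between libraries than its neighbours in this ranking: 2723, 2824, 1509, 2014 and 3787 CPM in libraries 1 to 5, against 3527, 3735, 3588, 3550 and 3925 CPM for Tubb5. Libraries 3 and 4 were the low ones for Hbb-y. The mitochondrial genes mt-Co1 (7794 ± 213 CPM), mt-Cytb (4704 ± 198) and mt-Nd1 (4110 ± 162), of the respiratory chain, were the most abundant named genes by CPM along with Eef1a1 (7302 ± 761).

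Of 646 transcription factors in a list of 14 families, 462 reached 1 CPM in all 5 libraries, 333 reached 10 CPM and 112 reached 100 CPM, while 100 stayed under 0.5 CPM in all 5. The families differed. Among homeobox genes, 40 of 123 reached 10 CPM and 34 stayed under 0.5 CPM; among SOX and HMG box genes, 19 of 28 reached 10 CPM and 2 stayed under 0.5 CPM. Of 9 paired box genes, 1 reached 10 CPM: Pax6, a regulator of radial glia, at 232 CPM. Of 7 DMRT genes, 3 reached 10 CPM.

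Sox11, which acts in newborn neurons, led the transcription factors at 220 ± 20.4 CPM per kb (SD, n = 5). Its values were 1663, 2009, 1947, 1892 and 1636 CPM in libraries 1 to 5. Id4, an inhibitor of basic helix-loop-helix factors that is expressed in neural progenitors, followed at 214 ± 9.83 CPM per kb, then Maz at 192 ± 9.38 and Sox4, a relative of Sox11, at 185 ± 20.7. Factors of both progenitors and neurons made up the next places. Neurog2, the proneural gene of the dorsal forebrain, stood at 143 ± 14.9 CPM per kb, Neurod6, of young projection neurons, at 134 ± 34.6, Lhx2, a selector gene of cortical identity, at 132 ± 9.85, and Sox2, a stem cell factor, at 126 ± 14.4. Zbtb18 (106 CPM per kb), Plagl1 (93.7), Nfib (88.1), Pou3f3 (84.9), Atf4 (81.4), Nr2f1 (78.2), Hes6 (76.2), Tcf3 (70.3), Sox12 (69.4), Sox3 (66.6) and Eomes (63.3) were also among the first 20.

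The order within this group is not sharp. In 19 of the 19 pairs of neighbours among the first 20, the ranges over the 5 libraries overlapped. Id4 was above Maz in 5 of 5 libraries, and Sox11 was above Id4 in 3 of 5. Neurod6 had the widest range, from 75.9 to 162 CPM per kb, with library 1 at the bottom.

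Emx2 and Dmrta2, the factors named in the series' title, were both among the more abundant transcription factors. Emx2 ranked 22nd among the transcription factors at 62.8 ± 4.46 CPM per kb (SD, n = 5), with 211, 181, 177, 185 and 188 CPM in libraries 1 to 5. Dmrta2, a DMRT factor of the medial and caudal cortex, ranked 27th at 55.0 ± 5.33 CPM per kb, with 161, 150, 162, 146 and 186 CPM. Emx1, the close relative of Emx2, stood at 50.6 ± 2.78 CPM per kb, with 112, 105, 112, 105 and 120 CPM. Library 1 was highest for Emx2 and library 5 for Dmrta2 and Emx1, and none of the 3 genes differed between libraries by much more than the typical gene: their SDs of log2 CPM were 0.099, 0.14 and 0.078, against a median of 0.107 over 11969 genes of at least 5 CPM on average.

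Progenitor markers were high, and their summed levels were even. All 26 markers of radial glia reached 1 CPM in every library, and 25 reached 10 CPM. Their median was 41 CPM per kb, against 6.80 over 13391 nuclear coding genes of at least 1 CPM on average. Vim and Nes, intermediate filament genes of radial glia, led at 174 and 159 CPM per kb, followed by Fabp7 (a fatty acid binding protein; 136), Sox2 (126) and Mki67 (a proliferation antigen; 125). The lowest were Slc1a3 (15.4), Prom1 (11.5), Fgfr2 (8.42), Pard3 (6.22) and Tnc (1.24), a matrix gene of later radial glia. Nes was nearly constant, at 1026, 1059, 1006, 1020 and 993 CPM. Summed over the list, the level was 7347, 6815, 7193, 7274 and 7066 CPM, a range of 1.08-fold. Single members were not steadier than other genes: their median SD of log2 CPM was 0.121, against 0.107 over genes of at least 5 CPM. Of the 26, 13 were lowest in library 2 and 9 highest in library 1. Over all genes of at least 5 CPM, library 2 was lowest for 23.2% and library 1 highest for 24.9%. Hmga2, a chromatin protein of young progenitors, spread more, at 400, 220, 218, 282 and 205 CPM, with library 1 the high one.

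The 30 cell cycle genes all reached 10 CPM in every library and summed to 9095 ± 223 CPM (SD, n = 5), a range of 1.07-fold. Of the 30, 16 were lowest in library 2 and 11 highest in library 1. The same libraries held these places for 23.2% and 24.9% of all genes of at least 5 CPM. Ccnd2, cyclin D2, was the most abundant at 283 CPM per kb, with 2443, 2667, 2660, 2817 and 2738 CPM. Rrm2 (nucleotide synthesis; 110 CPM per kb), Top2a (a topoisomerase; 91.7) and Cdc20 (mitotic exit; 91.0) followed Mki67.

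Among markers of intermediate progenitors, 18 of 20 reached 1 CPM in all libraries. Neurog2 led, followed by Hes6, Eomes (the defining factor of this cell type), Gadd45g (51.5 CPM per kb) and Btg2 (50.8). Eomes was at 224, 261, 304, 283 and 243 CPM, lowest in library 1. Ppp1r17, more typical of later stages, stayed at 0.639 CPM per kb, and Tac2 had no counts. The sum of the list was 1733, 1881, 2079, 1933 and 1918 CPM, and 11 of the 17 members of at least 5 CPM were lowest in library 1, which was the lowest library for 24.6% of all genes at that level.

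Neuronal genes were abundant and less even than progenitor genes. All 29 pan-neuronal genes reached 1 CPM in every library, with a median of 27.3 CPM per kb, below that of radial glia. Tubb3, the neuronal beta-tubulin, led at 399 CPM per kb, followed by Map1b (171), Stmn1 (154) and Dpysl3 (131), which act on the cytoskeleton of growing neurites. The lowest were Nefl, a neurofilament of mature axons (2.15), and Scg2 (1.98). Dcx, a microtubule protein of migrating neurons, was at 613, 1102, 930, 864 and 687 CPM in libraries 1 to 5. Mapt, which encodes tau, was at 78.7, 228, 152, 126 and 113 CPM. In both genes library 1 was lowest and library 2 highest, as in the sum of the list, which was 7596, 11020, 9515, 9394 and 8229 CPM. Of the 28 members of at least 5 CPM, 25 were highest in library 2 and 22 were lowest in library 1. Over all genes at that level, library 2 was highest for 23.2% and library 1 lowest for 24.6%. The median SD of log2 CPM in the list was 0.296, against 0.107 over all such genes.

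The genes of cortical projection neurons and the subplate were led by Neurod6, Nfib, Neurod2 (62.9 CPM per kb), Tbr1 (49.97), the factor of early-born deep-layer neurons, and Fezf2 (44.6), of subcerebral neurons. The lowest members were Rorb, of layer 4, at 0.956 CPM per kb, and Sla at 0.291. Neurod6 was at 163, 326, 348, 324 and 273 CPM and Neurod2 at 116, 246, 247, 206 and 173 CPM. In these basic helix-loop-helix factors library 1 stood lowest, and the other 4 did not reach down to it. Tbr1, in contrast, was at 252, 300, 279, 287 and 252 CPM, with libraries 1 and 5 level. Fezf2 was lowest in library 2 (140, 124, 137, 135 and 145 CPM). Over the list, 16 of 24 members of at least 5 CPM were lowest in library 1, against 24.6% of all such genes, and the sum was 3626 CPM there and 4198 to 4783 CPM in the others.

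Cajal-Retzius cells are early neurons of the marginal zone that secrete reelin. Their marker list summed to 973 ± 29.0 CPM (SD, n = 5), a range of 1.07-fold. Tbr1, which is also in the projection neuron list, made up 28.2% of it. Single members were less even than the sum. Their median SD of log2 CPM was 0.196, against 0.107 over genes of at least 5 CPM. Reln itself was at 136, 190, 182, 173 and 153 CPM. Trp73, a marker of those from the hem, was at 58.8, 55.9, 48.3, 48.3 and 60.7 CPM. Lhx5 (18.1, 11.3, 9.48, 9.94 and 24.6 CPM) and Lhx1 (18.6, 17.5, 15.2, 13.4 and 30.02 CPM) were highest in library 5. Calb2, which encodes calretinin, was low throughout, at 7.22 to 10.3 CPM.

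**Figure D1:**
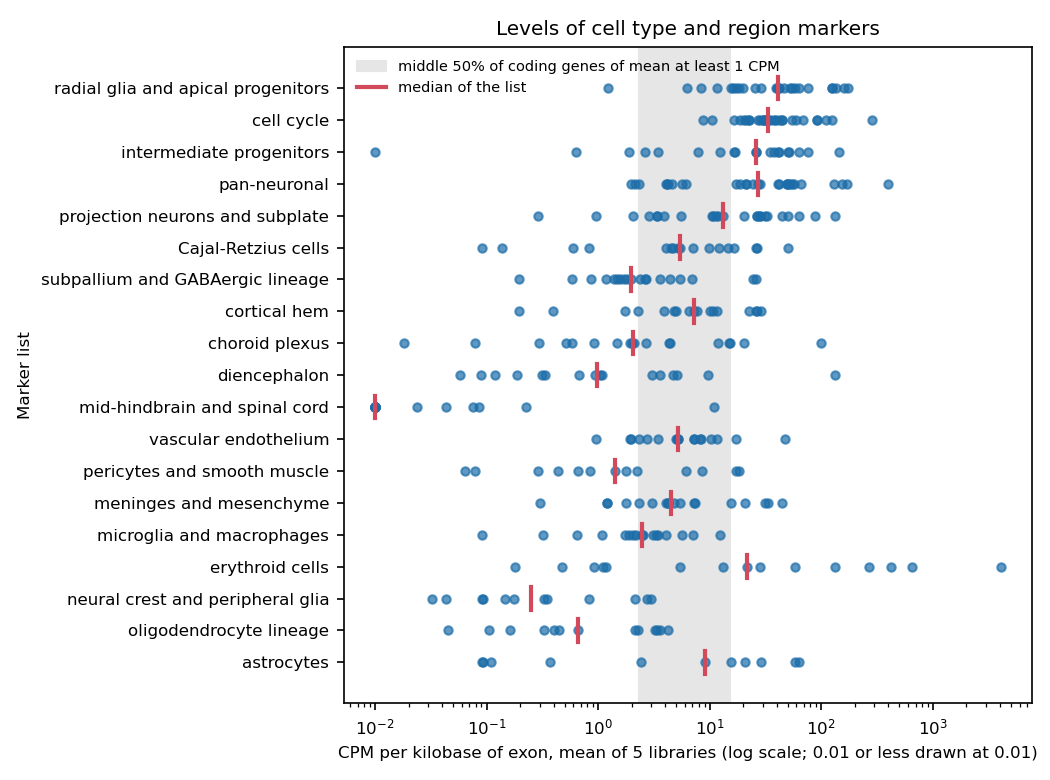
The horizontal axis gives CPM per kilobase on a log scale, the rows are marker lists, each blue point is a gene (mean of 5 libraries), the red line is the list's median and the grey band holds the middle 50% of coding genes of at least 1 CPM. The medians of the radial glia, cell cycle, intermediate progenitor, pan-neuronal and erythroid lists lie to the right of the band, from 21.6 to 41. Those of the subpallial, choroid plexus, diencephalic, hindbrain, pericyte, neural crest and oligodendrocyte lists lie to its left.

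The cortical factors Emx1 and Emx2 were abundant in all 5 libraries, as the label cortex states. Markers of regions next to the cortex were present at low to moderate levels, and they differed between libraries. Library 2 carried more transcripts of the ventral forebrain. Nkx2-1, the determinant of the medial ganglionic eminence, was at 2.29, 29.2, 0.814, 0.843 and 0.619 CPM in libraries 1 to 5. Lhx6, which acts downstream of Nkx2-1 in inhibitory neurons, was at 2.88, 17.5, 6.20, 3.64 and 3.198 CPM, and Lhx8 at 0.0848, 7.00, 0.112, 0.120 and 0 CPM. The genes for the GABA-synthesising enzymes Gad2 (7.71, 49.7, 18.2, 13.4 and 17.2 CPM) and Gad1 (6.78, 23.1, 12.48, 9.91 and 4.02 CPM) had library 2 on top, as did Dlx1 (12.7, 51.5, 22.9, 21.3 and 9.80 CPM) and Dlx2 (10.7, 43.1, 19.02, 16.6 and 9.49 CPM), which specify inhibitory neurons. Sst, of somatostatin neurons, was at 0.509, 11.3, 4.94, 3.88 and 3.10 CPM.

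Not all ventral markers followed this order. Isl1, of the lateral ganglionic eminence, was at 4.24, 13.6, 4.85, 2.50 and 14.1 CPM, so library 5 was as high as library 2. The list summed to 264, 575, 332, 287 and 304 CPM, and 9 of its 14 members of at least 5 CPM were highest in library 2, against 23.2% of all such genes. Library 2 was also the one with the highest pan-neuronal sum; the part of the ventral markers in that result was not tested.

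Libraries 1 and 5 carried more transcripts of the hem and of the diencephalon. Wnt8b, a Wnt ligand of the hem and medial cortex, was at 131, 71.2, 69.5, 96.7 and 129 CPM. The R-spondins, secreted amplifiers of Wnt signalling, behaved alike: Rspo3 was at 86.0, 58.1, 53.1, 63.5 and 89.7 CPM, Rspo2 at 81.3, 45.0, 42.9, 51.6 and 73.9 CPM, and Rspo1 at 61.5, 39.2, 41.5, 47.6 and 63.8 CPM. In each of these 4 genes libraries 1 and 5 were above the other 3. Lmx1a, the hem's LIM factor (28.6, 19, 19.2, 21.7 and 22.4 CPM), and Wnt3a (16.5, 11.5, 13.2, 10.5 and 13.8 CPM) were highest in library 1. Gdf7, a roof plate ligand, was hardly detected, at 0.028 to 0.422 CPM. The hem list summed to 702, 465, 458, 537 and 680 CPM, and 14 of its 15 members of at least 5 CPM were highest in library 1 (9) or library 5 (5), the highest libraries for 24.9% and 24.3% of all such genes.

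Among diencephalic genes, Tcf7l2, of the thalamus, was at 54.4, 20.1, 18.99, 22.4 and 40.8 CPM. Olig3, of the thalamic progenitor zone, was at 20.9, 0.884, 0.421, 0.873 and 8.15 CPM, and Shox2 at 11.8, 0.147, 0.253, 0.241 and 5.36 CPM. Foxb1 (2.29, 0.0736, 0.0561, 0.0602 and 2.17 CPM) and Gbx2 (4.58, 1.03, 0.0842, 0.241 and 1.44 CPM) were low in all libraries and again highest in library 1. Barhl2, at 20.2, 11.7, 5.245, 8.19 and 9.18 CPM, was highest in library 1 too, but library 2 was above library 5. Lhx9, at 100, 91.2, 79.1, 81.5 and 102 CPM, is also expressed in the medial cortex and varied less. Of the 7 members of the diencephalic list of at least 5 CPM, 4 were highest in library 1 and 3 in library 5. These libraries were the highest for 24.9% and 24.3% of all such genes. The 7 include Lhx9 and Lhx2, the latter named above for cortical identity, so they are not all specific to the diencephalon. Library 1 was also the lowest for Neurod6 and Neurod2 and for the pan-neuronal list; the part of the diencephalic and hem markers in that result was not tested.

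Choroid plexus genes were more even. Ttr, transthyretin, the classic product of this epithelium, stood at 99.4 CPM per kb, with 98.9, 125, 141, 101 and 124 CPM. Foxj1, of multiciliated cells, was at 61.1, 47.4, 51.7, 50.95 and 53.95 CPM, and Clic6 at 67.4, 62.3, 60.8, 57.7 and 51.6 CPM. Otx2, which the hem and diencephalon also express, was at 91.2, 57.1, 50.6, 52.7 and 59.9 CPM, with library 1 apart. Hindbrain and spinal cord genes were close to absent: 9 of 14 stayed under 0.5 CPM in every library, and 4 Hox genes (Hoxa2, Hoxb1, Hoxd3 and Hoxa5) had no count at all. For counting error alone, 0 counts allow a level of up to 0.0841 to 0.309 CPM (3 counts), depending on the library. Of the 14, 2 reached 1 CPM in every library. Fgf17, a signal of the anterior midline as well as of the midbrain, was at 29.3, 7.29, 19.1, 19.5 and 17.5 CPM. It made up 85.4% of the list's sum.

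**Figure D2:**
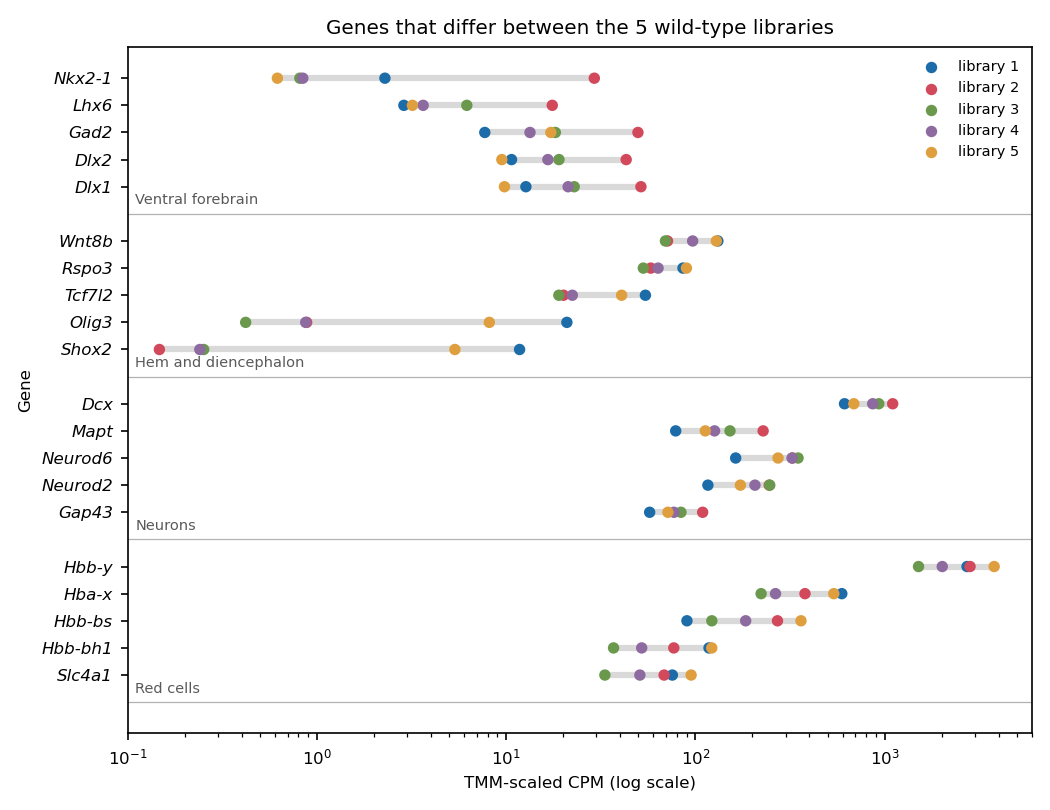
The horizontal axis gives TMM-scaled CPM on a log scale, rows are genes in 4 groups, each point is a library and the grey bar is the range. Library 2 stands to the right in the ventral forebrain rows, libraries 1 and 5 in the hem and diencephalon rows, library 1 to the left in the neuron rows, and library 3 to the left in 4 of the 5 red cell rows.

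Of the non-neural lists, the erythroid one had the highest sum, and Hbb-y made up 62.6% of it. List sums depend on the genes listed and do not measure amounts of tissue. The erythroid list summed to 4241, 4358, 2564, 3374 and 5988 CPM in libraries 1 to 5, a range of 2.34-fold, with library 3 lowest and library 5 highest. After Hbb-y, the leading genes were Hba-a1, an adult alpha-globin (649 CPM per kb), and Hba-x, the embryonic alpha-type globin (426). Hba-x was at 593, 379, 222, 265 and 538 CPM, and Hbb-bh1, another embryonic beta-type globin, at 118, 76.9, 36.9, 52.0 and 122 CPM. Both were lowest in library 3, as were Hbb-y and Slc4a1, the anion exchanger of the red cell membrane (75.5, 68.3, 33.2, 50.9 and 94.9 CPM). The later globin Hbb-bs had another order, at 90.2, 271, 122, 184 and 361 CPM, lowest in library 1. Gata1, the master factor of the erythroid lineage, was at 0.339 to 0.516 CPM. Library 5 had both the highest erythroid sum and the highest share of ribosomal protein genes, 1.95% of counts against 1.56% to 1.65% in the others; the part of one in the other was not tested.

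The embryonic globins Hbb-y and Hba-x are shown here with the 250 bases before their start sites, because they are among the 3 most abundant genes of the erythroid list and both were lowest in libraries 3 and 4. The sequences are RefSeq's for GRCm38.p6, given 5′ to 3′ on the strand of the gene: chr7:103853208-103853457 on the minus strand for Hbb-y and chr11:32276350-32276599 on the plus strand for Hba-x. Capitals mark matches, on either strand, to GATAA (the core bound by GATA factors), CCACCC (bound by Krüppel-like factors) and CCAAT.
Hbb-y: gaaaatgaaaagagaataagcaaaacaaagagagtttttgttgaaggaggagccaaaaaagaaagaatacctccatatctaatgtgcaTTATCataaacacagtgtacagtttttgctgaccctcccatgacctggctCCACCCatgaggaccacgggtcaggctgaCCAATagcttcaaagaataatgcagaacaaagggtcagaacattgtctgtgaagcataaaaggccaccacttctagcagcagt
Hba-x: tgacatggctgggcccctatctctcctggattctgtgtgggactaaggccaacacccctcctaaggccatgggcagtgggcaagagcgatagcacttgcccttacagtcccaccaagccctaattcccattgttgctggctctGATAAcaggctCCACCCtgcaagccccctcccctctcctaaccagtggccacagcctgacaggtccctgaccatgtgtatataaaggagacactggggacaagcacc
Each window held 1 GATAA and 1 CCACCC match, and Hbb-y held 1 CCAAT match as well. These short motifs are common: of 32851 windows of the same length, 22.6% held GATAA, 28.1% CCACCC and 33.8% CCAAT on either strand. The matches describe the letters only and do not show that a factor binds.

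The meningeal and endothelial lists came next among the non-neural sums. All 18 endothelial markers reached 1 CPM in every library, with a median of 5.24 CPM per kb. Slc2a1, the glucose transporter of brain endothelium, which neural progenitors also express, led at 47.4 CPM per kb. Cldn5, of tight junctions, was at 23.6, 28.7, 24.1, 25.4 and 20.5 CPM, Cdh5 (vascular cadherin) at 56.8, 53.5, 45.8, 52.5 and 33.9 CPM, and Kdr (the main VEGF receptor) at 85.6, 80.8, 71.0, 73.9 and 68.4 CPM. Of the 18 genes, 15 were lowest in library 5, which was the lowest for 21.2% of all genes of at least 5 CPM. Library 1 was highest for 12 of them, against 24.9% of all such genes. Meningeal and mesenchymal genes were led by Crabp2 (44.2 CPM per kb), Lum (33.5) and Col3a1 (31.2). Col3a1 was at 342, 330, 299, 304 and 255 CPM and Col1a1 at 150, 141, 152, 143 and 87.3 CPM, both collagens being lowest in library 5. The library with the highest erythroid sum was the one with the lowest endothelial and meningeal sums, and the part of one in the other was not tested.

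Microglia, the resident macrophages, were detected at low levels. Their 17 markers summed to 109 ± 11.2 CPM (SD, n = 5), 15 of them reaching 1 CPM in every library. Cx3cr1 was at 16.2, 12.9, 13.3, 15.7 and 15.6 CPM, Csf1r, the survival receptor, at 13.3, 13.9, 12.1, 15.2 and 18.1 CPM, and C1qa, of complement, at 6.70, 5.96, 6.62, 8.19 and 9.39 CPM. P2ry12, a marker of mature microglia, was at 2.46 to 6.50 CPM. Of 12 genes of the neural crest and peripheral glia, 3 reached 1 CPM in every library and 5 stayed under 0.5 CPM in all. Tfap2b, a neural crest factor, was at 25.9, 13.3, 21.8, 10.8 and 23.2 CPM, and Sox10, the defining factor of crest-derived glia, at 0.331 to 2.37 CPM.

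Genes of glia that form later were divided. Of 11 astrocyte genes, 8 reached 1 CPM and 6 reached 10 CPM in every library. Fgfr3 and Slc1a3, which radial glia share with astrocytes, averaged 453 and 131 CPM. Gfap, the filament of mature astrocytes, was at 0 to 0.678 CPM, Aldh1l1 at 0.309 to 0.509 CPM and Aqp4, a water channel, at 1.99 to 3.10 CPM. Of 13 genes of the oligodendrocyte lineage, 8 reached 1 CPM and 4 reached 10 CPM in every library. Olig2, needed for oligodendrocytes and also present in ventral progenitors, was at 6.02, 11.8, 4.88, 2.23 and 4.02 CPM, highest in library 2.

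**Figure D3:**
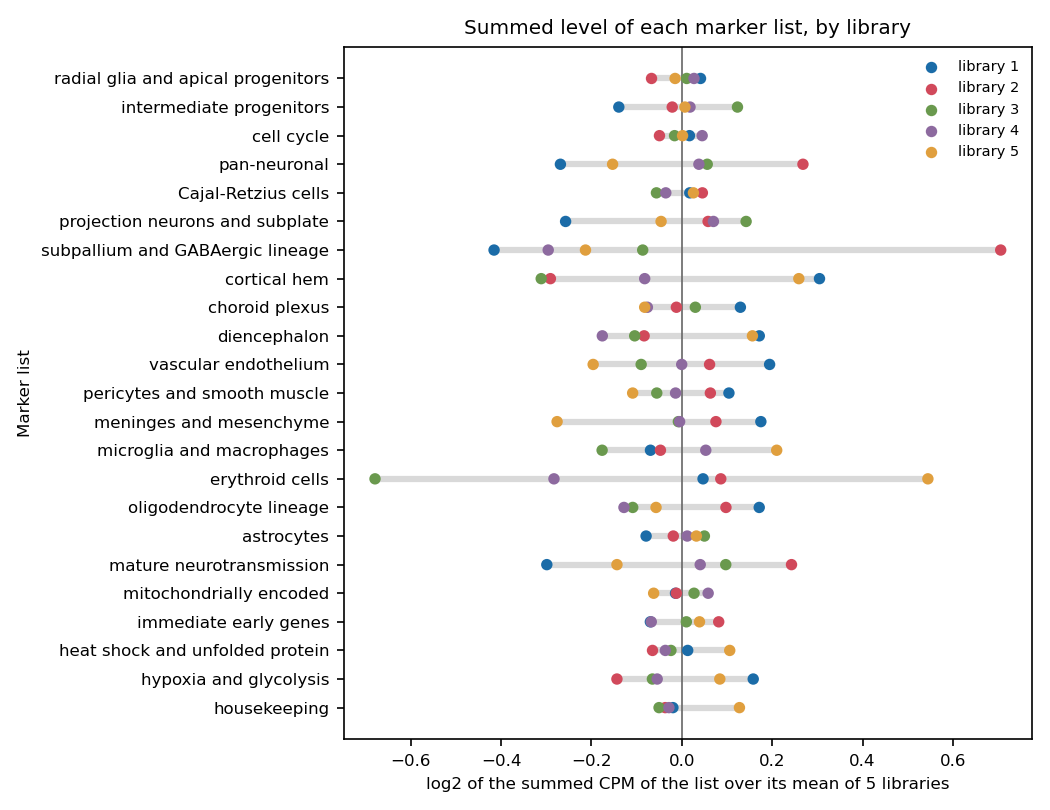
The horizontal axis gives log2 of each list's summed CPM over its mean of the 5 libraries, rows are marker lists of at least 100 CPM and points are libraries. The radial glia and cell cycle rows are narrow, with ranges of 1.08-fold and 1.07-fold; the subpallial row stretches to the right through library 2, and the erythroid row is the other wide one at 2.34-fold.

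Most genes varied little. Xist and the genes of the Y chromosome, which differ between the sexes, were left out of the rankings of variation. Over the other 11969 genes of at least 5 CPM on average, the median SD of log2(CPM + 0.5) was 0.107, 95% of genes lay below 0.351, and 40 genes exceeded 1. The median coefficient of biological variation estimated by edgeR was 0.0916. Transcription factors varied slightly more (median SD 0.134 over 402). The steadiest of at least 20 CPM were Mtf1, a metal-responsive factor (36.5, 36.6, 37.8, 36.5 and 36.4 CPM), Mlxip, Hmbox1, Smad4, the common mediator of BMP and TGF-beta signals (154, 152, 152, 159 and 153 CPM), Zeb1, Cebpz, Elf2, Tfcp2, Cbfb and Gabpa, with SDs from 0.023 to 0.031. Spreads this small can lie within counting error, so the order of these genes is not sharp.

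The most variable transcription factors were, in order, Olig3, Nkx2-1, Isl1, Lhx6, Fezf1, Dlx1, Hopx, Dlx2, Olig2 and Dlx5, with SDs from 1.99 down to 0.71. Library 2 was the highest for 6 of these 10, libraries 1 and 5 for 2 each. Over all genes of at least 5 CPM, libraries 2, 1 and 5 were highest for 23.2%, 24.9% and 24.3%. Markers of the ventral forebrain or the diencephalon made up most of this ranking. Hopx, an atypical homeobox gene of medial and later radial glia, and Fezf1 had other patterns. Hopx was at 20.9, 6.70, 17.9, 13.2 and 4.95 CPM, with libraries 2 and 5 low. Fezf1 was at 16.7, 18.3, 5.245, 5.81 and 22.6 CPM, with libraries 3 and 4 low.

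Among the 100 most variable protein-coding genes, library 2 was the highest for 39, library 1 for 24, library 5 for 20, library 4 for 11 and library 3 for 6. Over all genes of at least 5 CPM, the same libraries were highest for 23.2%, 24.9%, 24.3%, 13.7% and 13.9%. Besides the regional factors, the first 20 held Dennd1c (12.8, 0.442, 12.4, 9.48 and 0.516 CPM), Myo7a, an unconventional myosin (11.1, 1.69, 11, 1.39 and 1.24 CPM), Trank1 (3.81, 23.1, 3.84, 4.73 and 1.96 CPM), Mt2, a metallothionein (21.3, 18.4, 4.24, 34.8 and 22.3 CPM), and Ntn1, the axon guidance cue netrin-1 (7.88, 25.8, 11.1, 9.58 and 3.61 CPM). Their high libraries differed from gene to gene: library 2 for Trank1 and Ntn1, libraries 1 and 3 for Myo7a, and all but libraries 2 and 5 for Dennd1c.

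Another part of the variable genes were copies of other genes. Of the 50 most variable genes, Xist and the Y chromosome left out, 20 were pseudogenes. Pseudogenes made up 1.72% of all 11975 genes of at least 5 CPM, a total that does count Xist and the Y chromosome. The share of a gene's transcript found elsewhere was measured as the share of 50-base windows of its longest GENCODE transcript that also occur in the longest transcript of another gene. In 19 of the 50 (38.0%), 50% or more of the windows were shared, as in 2.29% of all genes at this level. Of the 50 least variable genes, 0 did so. The 50th gene had an SD of 0.908 and the 51st of 0.902.

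Some copies mirrored their parent. Hmga1 encodes a chromatin protein, and Hmga1b is a copy elsewhere in the genome; their coding sequences of 321 bases were identical. Hmga1 was at 61.2, 27.0, 41.7, 41.01 and 31.3 CPM and Hmga1b at 2.03, 28.1, 15.2, 14.8 and 32.2 CPM. The sum of both was 63.2, 55.2, 56.9, 55.8 and 63.4 CPM, with an SD of log2 CPM of 0.099, against 0.45 and 1.47 for each alone. Rbpj, the DNA-binding effector of Notch signalling, was at 140, 59.6, 145, 102 and 64.5 CPM and its processed pseudogene Rbpj-ps3 at 2.97, 26.1, 2.27, 13.2 and 25.3 CPM. Where Rbpj was low, in libraries 2 and 5, the pseudogene was high. Of the pseudogene's windows, 89.0% were shared with Rbpj, and these made up 22.8% of the windows of Rbpj. The sum of Rbpj and Rbpj-ps3 still ranged from 85.7 to 147 CPM. The sources used here do not say how reads that match several genes were treated, so the values of such genes are uncertain.

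The alpha-globin copies differ by a single coding base. The stretch from coding position 361 to 401, counted from the A of the start codon, is shown because it holds the 1 difference, C381T, between the 426-base coding sequences of the GENCODE transcripts (GRCm38), marked by a capital.
Hba-a1: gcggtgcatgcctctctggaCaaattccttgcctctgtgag
Hba-a2: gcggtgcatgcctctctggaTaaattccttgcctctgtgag
Hba-a1 was at 371, 505, 384, 534 and 842 CPM, and Hba-a2 at 27.7, 42.8, 0.0561, 1.11 and 0.206 CPM, the most variable of the nuclear coding genes outside the Y chromosome. Hba-a2 was high in libraries 1 and 2, both of title code 241022, and near 0 in the others, whatever the level of Hba-a1.

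**Figure D4:**
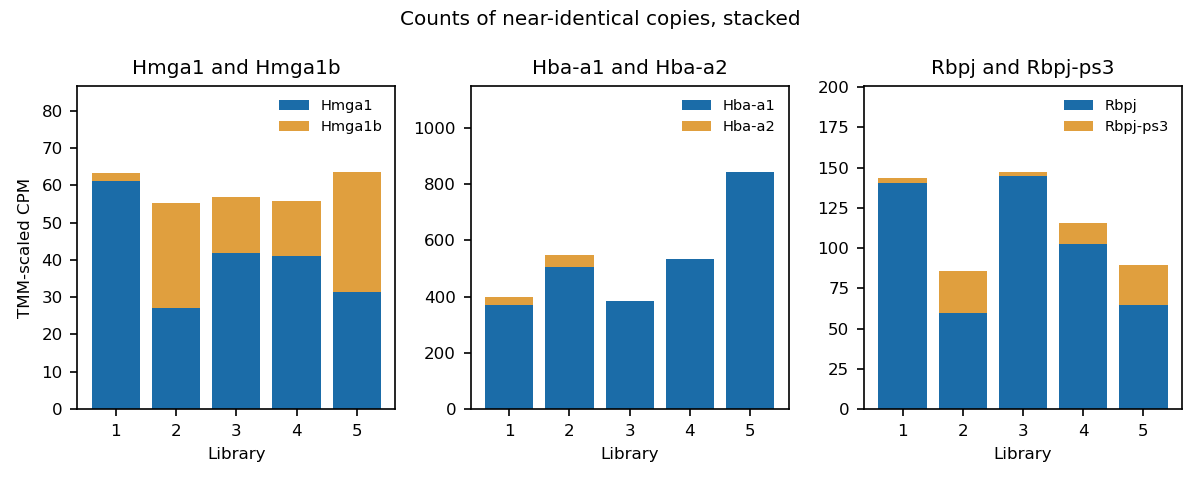
Stacked bars give TMM-scaled CPM of a gene (blue) and a copy of it (orange) in each of the 5 libraries, from 0. The copy shares 69.1% of the windows of Hmga1, 67.5% of those of Hba-a1 and 22.8% of those of Rbpj. Hmga1 and Hmga1b add up to between 55.2 and 63.4 CPM, while the orange share differs widely between libraries in every panel.

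The title code groups these libraries and goes with depth: both libraries of code 14922 are the deep ones, so code and depth cannot be told apart. Comparing codes 14922 and 241022 (2 libraries each, library 5 as a level of its own) with edgeR's quasi-likelihood test, 32 of 18617 genes, 0.172%, passed an adjusted p of 0.05, 6 of them higher and 26 lower in code 14922. At an unadjusted p under 0.05 there were 1518. Of the 32, 26 were pseudogenes, 3 mitochondrial genes and 1 a long noncoding RNA, which leaves 2 of 14256 nuclear coding genes. One was Fezf1, a forebrain zinc finger repressor, at 5.25 and 5.81 CPM in libraries 3 and 4 against 16.7 and 18.3 in libraries 1 and 2 (log2 difference -1.65 ± 0.13 SE, adjusted p = 0.034), with 22.6 CPM in library 5. The other was C3, of complement, at 3.25 and 4.46 CPM against 0.0848 and 0.147 (log2 difference 4.97 ± 0.46 SE, adjusted p = 0.0475). In libraries 1 and 2, 3 counts amount to 0.255 and 0.221 CPM, so each C3 value there rests on fewer than 3 counts. Both SEs were worked back from the test statistic and do not measure counting error. When protein-coding genes were tested alone with edgeR, 0 of 14228 passed the threshold and 777 had an unadjusted p under 0.05; DESeq2's Wald test over all genes called 32 nuclear coding genes among 120. The count of 32 became 11 without library 3, 17 without library 4, 114 without library 1 and 214 without library 2, and 5 of the 11 were among the 32. The 3 mitochondrial genes, mt-Co2, mt-Co3 and mt-Atp6, averaged under 6 CPM, as against 7794 CPM for mt-Co1, and were lower in code 14922. For mt-Co2 the values were 10.7, 8.69, 0.785, 0.693 and 6.60 CPM, and 100% of its windows also occur in other genes, so its level is uncertain.

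Both sexes were present. Xist, the RNA that silences 1 X chromosome in females, was at 4374, 4132, 0.589, 4242 and 0.722 CPM. The Y-linked Ddx3y was at 107 and 116 CPM in libraries 3 and 5 and at most 0.0301 CPM in the others, and Kdm5d, Eif2s3y and Uty showed the same split. Sex did not follow the title code, since libraries 3 and 4 share a code.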

How the data were processed

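Total RNA came from a spin-column kit, and library preparation followed a standard Illumina protocol, per the labels. The deposited values are raw read counts per Ensembl gene, made by the authors with bcl2fastq 2.20, STAR 2.7.8a and featureCounts 1.6.3-p1, per the submitters' processing notes, which name the builds GRCm39 and rn6. Strand setting and treatment of multi-mapping reads are not given in the sources used here.

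Of 56748 identifiers, 52073 matched a symbol, holding 98.4% to 99.4% of counts. Names, exon lengths and transcripts came from GENCODE M21 (GRCm38), another build than the submitters' GRCm39. CPM used TMM factors (edgeR 4.0.16, R 4.3.3) over 15555 genes kept by filterByExpr (minimum count 10). Between-library variation is the SD of log2(CPM + 0.5). Title codes were compared with edgeR's quasi-likelihood test, two-sided, with Benjamini-Hochberg adjustment. The code was tried on simulated counts drawn from edgeR's own model of these libraries. That checks the code, not how well the test suits genes of low count or copies. Alternatives used DESeq2 1.42.0, other scalings, thinning, filters and each library left out. Low totals limit genes under about 1 CPM. Smaller libraries give coarser values, and intervals for counting error are not given. Over all genes the libraries differed by more than counting error, but the spread of the steadiest genes can lie within it.

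Genes named are those leading each ranking or list per kilobase, the most and least variable, and the extreme calls. Further list members, and the copies Hmga1, Rbpj and Lars2, were chosen after their values were seen. The gene lists and rules were chosen with earlier results of these data known. Some genes that these rules name are not reported here.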

Additional observations from a re-analysis of the deposited data

Results flagged for a closer look

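In 29 list sums and 183 named genes, the gap between the highest or lowest library and its nearest neighbour was set against the whole range of the 5 libraries, with Dixon's 95% limit of 0.71. Chance flags about 5% of such groups, and many of these genes were named for their variation. By the same rule, 6.14% of all 11969 genes of at least 5 CPM stood apart. Among the sums, 3 stood apart: the subpallial list in library 2 (575 CPM, others 264 to 332), the surface ectoderm list in library 1 (17.1 CPM, others 11.6 to 12.3) and the housekeeping list in library 5 (23700 CPM, others 20950 to 21400).

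Of the 15 genes, 7 stood apart through a high library 2: Scg2 (9.06 CPM, others 3.30 to 4.64), Nkx2-1 (29.2, others 0.619 to 2.29), Lhx8 (7.00, others 0 to 0.120), Lhx6 (17.5, others 2.88 to 6.20), Gad2 (49.7, others 7.71 to 18.2), Dlx2 (43.1, others 9.49 to 19.02) and Trank1 (23.1, others 1.96 to 4.73). Library 1 was high for Otx2 (91.2 CPM, others 50.6 to 59.9) and low for Slc17a6 (89.2 CPM, others 96.9 to 99.02). Library 5 was low for Col1a1 (87.3 CPM, others 141 to 152) and high for Aqp4 (3.10 CPM, others 1.99 to 2.29) and Hspa8 (1345 CPM, others 1037 to 1123). Library 4 was low for Tpm3-rs7, a copy related to Tpm3 (2.14 CPM, others 64.4 to 73.5), and high for Smad4 (159 CPM, others 152 to 154), and library 3 was high for Mtf1 (37.8 CPM, others 36.4 to 36.6). The gaps of Smad4 and Mtf1 are small enough to lie within counting error.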

How the results depend on the processing

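The count of genes differing between the title codes (32) is the least stable value: it was 120 with DESeq2's Wald test, 290 without the filter on low counts, 0 among protein-coding genes alone, and from 11 (without library 3) to 214 (without library 2) with a library left out; it was 114 without library 1 and 17 without library 4. Where 1 library of a code is left, it is assumed to vary like the others. The share of counts in the 100 most abundant genes was 15.6% and became 14.0% without mitochondrial genes. Ranking transcription factors by CPM without length left 11 of the first 20. The 50 most variable genes shared 23 with the ranking from a mean of 1 CPM and 12 with that from 20 CPM. Without mitochondrial genes the cell cycle sum was 9331 CPM against 9095, more than its SD. CPM is relative to the total, so leaving mitochondrial counts out raised the sums of the other lists too. No other list sum moved by more than its SD between libraries under any alternative tried. With a library left out this could not happen, because the mean of the remaining libraries always stays within that SD. The subpallial sum averaged 352.5 CPM, and 296.9 CPM without library 2. That check therefore does not show whether the list sums are stable. Leaving out a library gave 15001 to 15121 genes at 1 CPM, 333 to 338 transcription factors at 10 CPM, 15.4% to 15.6% for the 100 most abundant genes, 19 to 20 of the first 20 transcription factors and 36 to 43 of the 50 most variable genes. No paired analysis was possible because only the wild-type group was analysed. Exon lengths from another build, and copies, limit the values per kilobase.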

Other observations

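Markers of energy metabolism and cell stress also differed a little between libraries. The hypoxia and glycolysis list summed to 3482, 2825, 2983, 3005 and 3308 CPM in libraries 1 to 5. Of its 15 members of at least 5 CPM, 10 were highest in library 1, against 24.9% of all such genes. Ldha, lactate dehydrogenase A, was at 373, 272, 296, 283 and 366 CPM. The heat shock and unfolded protein list was highest in library 5, at 7187 CPM against 6384 to 6738, with Hspa8, a constitutive chaperone, at 1123, 1096, 1045, 1037 and 1345 CPM. Immediate early genes, which respond to handling and activity, summed to 502 to 558 CPM. Of their 10 members of at least 5 CPM, 7 were highest in library 2, against 23.2% of all such genes. Jun was at 118, 133, 131, 120 and 126 CPM.

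Of 20 genes of mature neurotransmission, 11 reached 1 CPM in every library. Among the 7 of at least 5 CPM, 5 were lowest in library 1, against 24.6% of all such genes. Gria2, an AMPA receptor subunit, was at 300, 407, 370, 370 and 332 CPM. Gria1 was at 5.68, 26.9, 18.0, 16.2 and 11.2 CPM. Slc17a6, the vesicular glutamate transporter of early neurons, varied less and was again lowest in library 1, at 89.2, 97.5, 99.02, 96.9 and 98.3 CPM.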
